A study of Mus musculus with 6 samples.

Results

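The mitochondrial genome of the mouse encodes 37 genes, and all of them are in the count table: every gene that the table places on chromosome MT was taken, 37 of 54532 genes. They are 13 mRNAs for subunits of the respiratory chain and ATP synthase, 2 ribosomal RNAs (rRNAs) and 22 transfer RNAs (tRNAs). RNA was measured in cultured mouse endothelial cells that had received lentivirus for 72 h, carrying either an empty vector (control, n = 3 libraries) or RBPMS (n = 3 libraries). RBPMS binds RNA through an RRM domain. Both groups received lentivirus and grew in an endothelial medium with serum; strain, age and the tissue of origin are not given in the labels. Total RNA went into the libraries after removal of ribosomal RNA, so the counts of the mitochondrial rRNAs are what that step left behind. The labels do not state whether replicates were separate cultures, so p-values here measure only how far these libraries scatter, and that scatter may be technical.

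Mitochondrial DNA is a small circle that is read on both strands. Long transcripts of the heavy and the light strand are cut, mostly at the tRNAs that lie between the other genes, into mRNAs, rRNAs and tRNAs. The mRNAs are translated inside the organelle by ribosomes that hold the mitochondrial rRNAs, and every other factor of this system, as well as most respiratory chain subunits, comes from nuclear genes. Complex I (NADH dehydrogenase, the mt-Nd genes), complex III (mt-Cytb), complex IV (cytochrome c oxidase, the mt-Co genes) and complex V (ATP synthase, the mt-Atp genes) all hold mitochondrially encoded subunits, while complex II holds none. Quiescent endothelial cells are known for making much of their ATP by glycolysis.

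The genes lie close together on chrM (GRCm38), and some share bases, which matters because a read from shared bases cannot be placed in 1 gene. The longest overlap, 43 bases, joins mt-Atp8 (chrM:7766-7969) and mt-Atp6 (chrM:7927-8607), the ATP synthase subunits 8 and 6, on the heavy strand. mt-Nd4l (chrM:9877-10173) and mt-Nd4 (chrM:10167-11544) share 7 bases of the heavy strand. mt-Nd5 (chrM:11742-13565, heavy strand) and mt-Nd6 (chrM:13552-14070, light strand) share 14 bases on opposite strands. The ends that overlap are printed below from the GENCODE M21 transcripts, with the shared bases in capitals.
mt-Atp8, bases 125 to 204: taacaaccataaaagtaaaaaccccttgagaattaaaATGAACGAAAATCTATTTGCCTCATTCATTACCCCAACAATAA
mt-Atp6, bases 1 to 80: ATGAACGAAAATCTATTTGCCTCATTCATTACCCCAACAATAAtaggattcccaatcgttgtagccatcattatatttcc
mt-Nd4l, bases 258 to 297: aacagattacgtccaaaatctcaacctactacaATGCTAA
mt-Nd4, bases 1 to 40: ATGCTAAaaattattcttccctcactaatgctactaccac
mt-Nd5, bases 1785 to 1824: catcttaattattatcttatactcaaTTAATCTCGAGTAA
mt-Nd6, bases 480 to 519: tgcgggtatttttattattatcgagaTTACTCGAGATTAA

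A second kind of shared sequence concerns nuclear copies of the mitochondrial genome. A cluster of 7 annotated pseudogenes on chromosome 1 (chr1:24611535-24616197, GRCm38, minus strand) carries copies of mt-Co1 (its last 492 bases), mt-Co2, mt-Atp6, mt-Co3, mt-Nd3, mt-Nd4l and mt-Nd4 (its first 876 bases). Over 4149 aligned bases these copies differ from the mitochondrial genes at 7 positions. Of these, 6 lie in the copy of mt-Co1 (Gm29216) and are T1056A, C1057T, A1059G, A1060G, C1062A and A1066T, counted from base 1 of mt-Co1, with the mitochondrial base written before the position. The remaining difference is T3C in the copy of mt-Nd3 (Gm28438). Copies on chromosome 2 of mt-Nd2, mt-Co1 and mt-Co2 are less alike, at 96.7%, 97.6% and 97.6% identity. The sequences below show where a read can and cannot be told from the chromosome 1 copy: at the start of Gm29216 (differing bases in capitals), nowhere in the first bases of mt-Co2, and in mt-Nd4 past base 876 (capitals).
mt-Co1, bases 1054 to 1133: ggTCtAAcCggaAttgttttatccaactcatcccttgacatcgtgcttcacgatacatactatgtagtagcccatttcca
Gm29216 (chr1:24616118-24616197): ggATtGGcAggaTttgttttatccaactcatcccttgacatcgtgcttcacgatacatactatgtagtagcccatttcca
mt-Co2, bases 1 to 80: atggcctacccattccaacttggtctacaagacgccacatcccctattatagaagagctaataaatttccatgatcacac
Gm28661 (chr1:24615486-24615565): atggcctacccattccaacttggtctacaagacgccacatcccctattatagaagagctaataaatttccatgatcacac
mt-Nd4, bases 837 to 916: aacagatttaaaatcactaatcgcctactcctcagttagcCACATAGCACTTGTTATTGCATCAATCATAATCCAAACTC

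The libraries held 15779567 to 23076124 counts. Rbpms itself stood at 57.0, 56.8 and 55.1 CPM in the controls, in the order of replicates 1 to 3, and at 131, 147 and 133 CPM with RBPMS (CPM here and below is the count per 1000000 after TMM scaling). Control replicate 3 stood apart, with a correlation of log2 CPM of at most 0.960 with any other library against at least 0.991 among the rest. Shares and numbers of called genes are therefore mostly given with all 6 libraries and with the other 5. For some single genes, and for the means of list genes, only the comparison without control replicate 3 is given. Endothelial markers summed to 19615 to 20307 CPM in control replicates 1 and 2, 15739 CPM in control replicate 3 and 17451 to 18391 CPM with RBPMS. The lower sum with RBPMS than in control replicates 1 and 2 was mostly Vwf, whose mean was 7775 CPM in those controls and 5671 CPM with RBPMS. Without control replicate 3, of the 10 endothelial markers Erg and Emcn were called higher, Vwf and Kdr lower, and 5 had a log2 fold change above 0 and 5 below. Markers of leukocytes summed to 43.1 to 47.4 CPM in the controls and 55.4 to 59.9 CPM with RBPMS, nearly all of it Cd68, with Adgre1 and Cd3e at 0 in every library. Marker sums were at most 3.65 CPM for cardiomyocytes (Actn2 at 0), 1.30 CPM for mural cells (Rgs5 at 0), 7.79 CPM for fibroblasts (Dpt at 0) and 26.1 CPM for epithelial and mesothelial cells (Epcam and Krt18 at 0). The part of these markers in the mitochondrial results was not tested.

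Mitochondrial transcripts took a larger share of the counts with RBPMS than in any control. All 37 genes together held 2.80%, 2.81% and 2.77% of the counts in the controls, again by replicate, and 3.10%, 3.08% and 3.35% with RBPMS. The groups did not overlap, with or without control replicate 3, and the means were 2.80% ± 0.0202 and 3.18% ± 0.152 (SD, n = 3 each), a ratio of 1.14. Without control replicate 3 the ratio was 1.13. Counting error was small beside this: the widest 95% Wilson interval of a library's share was ± 0.00827 percentage points. These intervals cover counting error only. In bulk samples like these, more cells of a kind and more RNA per cell cannot be told apart, and a share can rise when other transcripts fall. No p-value is given for sums over the genes.

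The larger share lay in the mRNAs of complexes I, III and IV. The 13 mRNAs held 2.74%, 2.75% and 2.66% of the counts in the controls and 3.03%, 3.01% and 3.28% with RBPMS. For the 7 complex I genes the shares were 1.04%, 1.05% and 1.04% against 1.16%, 1.15% and 1.26%, a ratio of 1.14. For mt-Cytb, the only complex III gene here, they were 0.345%, 0.353% and 0.349% against 0.374%, 0.378% and 0.404%. For the 3 complex IV genes they were 1.35%, 1.34% and 1.26% against 1.49%, 1.48% and 1.61%, a ratio of 1.16 with control replicate 3 and 1.13 without it. In each of these 3 complexes every RBPMS library was above every control library. The complex IV share was nearly all mt-Co1, for example 211435 of 213226 counts in control replicate 1.

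Complex V, the rRNAs and the tRNAs did not separate in this way. The 2 complex V genes held 0.00830%, 0.00352% and 0.00449% of the counts in the controls and 0.00412%, 0.00472% and 0.00618% with RBPMS, and the groups overlapped. These are mt-Atp6, of whose 100-base windows 99.5% also occur in a nuclear transcript, and mt-Atp8, with 4 to 10 counts a library. Their share therefore cannot be read as a difference between complexes. The 2 rRNAs held 0.0545%, 0.0578% and 0.112% in the controls and 0.0592%, 0.0604% and 0.0665% with RBPMS. With all 6 libraries their ratio was therefore 0.831, and without control replicate 3 it was 1.11, where the groups no longer overlapped. The 22 tRNAs held 0.00454% to 0.00727% in the controls and 0.00472% to 0.00561% with RBPMS, and these ranges overlapped with and without control replicate 3.

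**Figure D1:**
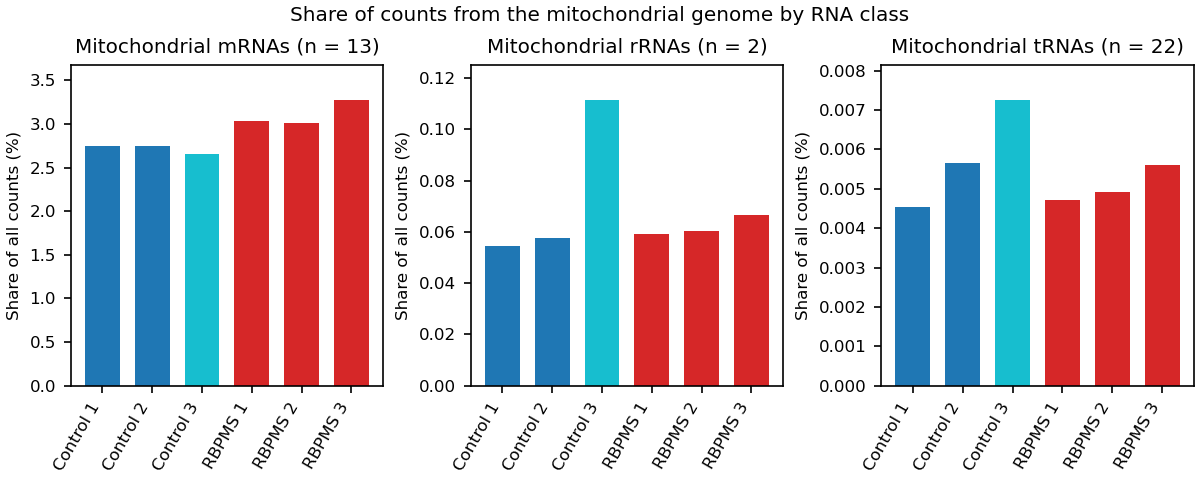
Bars give the share of all counts in each library, in percent and from 0, for the mitochondrial mRNAs, rRNAs and tRNAs, with control replicate 3 in its own colour. The mRNA bars of the 3 RBPMS libraries, at 3.01% to 3.28%, all stand above those of the controls, while control replicate 3 has the tallest rRNA and tRNA bars.

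By the counts assigned to them, the mRNA genes fell into a high set and a low set. Counts of mt-Co1, mt-Cytb, mt-Nd5, mt-Nd1, mt-Nd4, mt-Nd2 and mt-Nd6 made up 99.2% to 99.6% of the mitochondrial mRNA counts in every library, and the other 6 mRNAs made up 0.447% to 0.826%. Levels of different genes can be set side by side only per length. Averaged over the 6 libraries, mt-Co1, the catalytic subunit of cytochrome c oxidase, had the highest level per length at 9133 CPM per kb. mt-Cytb, the cytochrome b of complex III, followed at 3211 CPM per kb. The complex I subunits mt-Nd1, mt-Nd6, mt-Nd5, mt-Nd2 and mt-Nd4 came next, at 2460, 2343, 1995, 1698 and 1584 CPM per kb. Then came mt-Co2 (subunit 2 of cytochrome c oxidase, which takes electrons from cytochrome c) at 127, mt-Atp6 at 76.1, mt-Co3 at 43.9, mt-Nd4l at 20.3, mt-Nd3 at 5.01 and mt-Atp8 at 1.51 CPM per kb. These values rank the counts assigned to each gene and need not follow the amounts of RNA.

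In this order 3 pairs of neighbours had ranges over the 6 libraries that did not overlap: mt-Co1 above mt-Cytb, mt-Cytb above mt-Nd1, and mt-Nd4 above mt-Co2. The ranges of the other neighbours overlapped, although within each library mt-Atp6 was above mt-Co3 and mt-Co3 above mt-Nd4l. mt-Co1 ran from 8172 to 10310 CPM per kb and mt-Cytb from 2990 to 3519. mt-Nd4 ran from 1346 to 1780 CPM per kb, and mt-Co2 from 87.1 to 185. What remained of the rRNAs stood between the sets, with mt-Rnr1 (12S) at 407 and mt-Rnr2 (16S) at 187 CPM per kb.

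Of the 6 low mRNAs, 5 are the ones whose sequence is almost wholly present in the chromosome 1 copies. Of all 100-base windows of the gene, 99.5% in mt-Co2, 99.5% in mt-Atp6, 99.9% in mt-Co3, 97.6% in mt-Nd3 and 98.5% in mt-Nd4l occur without any mismatch in an annotated nuclear transcript. In the high set the share was 60.8% for mt-Nd4, 30.8% for mt-Co1, 3.19% for mt-Nd2 and 0% for mt-Cytb, mt-Nd1, mt-Nd5 and mt-Nd6. mt-Atp8 is the exception: 0% of its windows are shared with an annotated nuclear transcript, and it had 4 to 10 counts a library. In the chromosome 1 cluster a stretch of 233 bases without annotation lies between the copies of mt-Co2 and mt-Atp6, the genes that flank mt-Atp8 in the mitochondrial genome; its sequence was not analysed here. Whether the shared sequence accounts for the low counts was not tested.

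**Figure D2:**
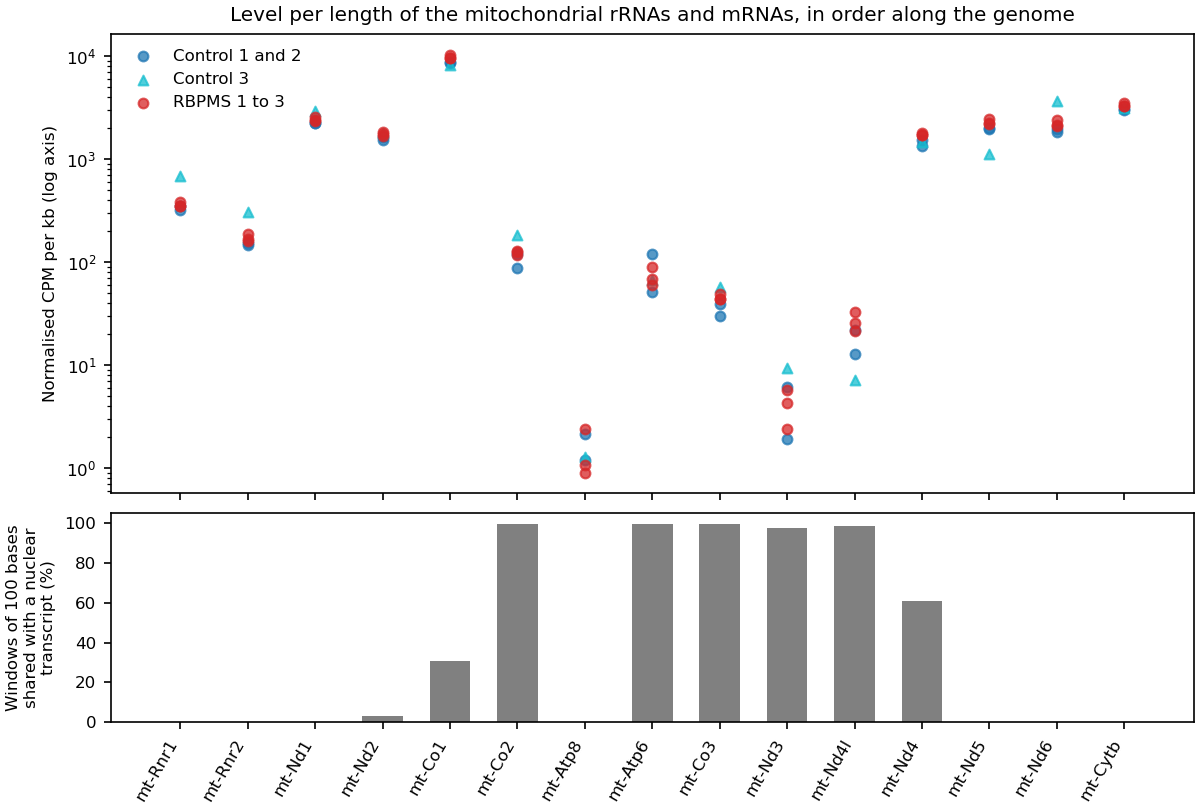
The upper panel gives, on a log axis, the normalised CPM per kb of each rRNA and mRNA in every library, ordered along the mitochondrial genome. The lower panel gives the percentage of 100-base windows shared with a nuclear transcript, which is 97.6% or more for 5 of the 6 mRNAs that lie at 185 CPM per kb or below in every library and 0% for mt-Atp8.

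The nuclear copies themselves carried counts close to those of the low genes. Over the 6 libraries Gm28661, the copy of mt-Co2, had 8570 counts against 10213 for mt-Co2, which is 83.9%. The copies of mt-Atp6 (Gm10925) and mt-Co3 (Gm28437) had 85.3% and 73.9% of the counts of their mitochondrial genes. The copy of mt-Nd4l (Gm10222) had 112%, and that of mt-Nd3 (Gm28438) had 835%, at 1721 counts against 206. For the high genes the copies were minor: Gm28439 had 0.679% of the counts of mt-Nd4, and Gm29216 had 0.236% of those of mt-Co1. Adding each copy to its gene left the low genes low, at 232 CPM per kb for mt-Co2, 140 for mt-Atp6, 76.2 for mt-Co3, 47.3 for mt-Nd3 and 43.1 for mt-Nd4l. When counts were instead divided by the number of windows found in no nuclear transcript, mt-Nd4 moved from the seventh place to the second. It stood at 4347 CPM per 1000 such windows, behind mt-Co1 at 14110. All counts of each gene were kept, also any from shared windows, so this division raised the genes with shared windows. The new order is therefore not one of RNA levels.

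Gene by gene, no mitochondrial gene passed the test with all 6 libraries, and 6 were called higher without control replicate 3. Of the 37 genes, 24 had enough counts to be tested, 12 mRNAs, the 2 rRNAs and 10 tRNAs. The gene left out among the mRNAs was mt-Atp8, with 35 counts in all. With all 6 libraries edgeR's quasi-likelihood test called 0 of the 24, as it called 0% of all 13898 genes tested at an adjusted p under 0.05. At an unadjusted p under 0.05 stood 2 of the 24, mt-Nd4l and mt-Tl2, and 1050 of all genes, and neither DESeq2 nor limma-voom called any of the 24. In that comparison 5 of the 24 (20.8%) had every RBPMS library above every control and 0 had the reverse, against 12.2% of all genes higher and 12.5% lower. Among the 5 was mt-Tw, at 0.370 to 0.528 CPM in the controls and 0.537 to 1.15 CPM with RBPMS. It had only 6 to 21 counts a library. Without control replicate 3 the same test called 6 of the 24 higher (25%) and 0 lower, against 3.81% of 14123 genes called higher and 3.43% called lower. There, 12 of the 24 (50%) had every RBPMS library above both controls and 0 had the reverse, against backgrounds of 18.3% and 19%. Mitochondrial genes are cut from shared long transcripts, so the 24 need not be separate observations. The median log2 fold change of the 24 was -0.03 over the 6 libraries, beside -0.0083 for all tested genes, and 0.15 over the 5, beside -0.0025 for all tested genes.

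mt-Nd4, a membrane subunit of complex I, had the smallest adjusted p. Its level was 1855, 2102 and 2007 CPM in the controls and 2337, 2340 and 2452 CPM with RBPMS. Every RBPMS library was above every control. The log2 fold change was 0.27 ± 0.054 (SE) with an edgeR adjusted p of 0.00379 without control replicate 3, and 0.26 ± 0.125 with an adjusted p of 0.587 with all 6. Without control replicate 1 as well, the adjusted p was 0.0913.

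mt-Nd5, the largest of the mitochondrial mRNAs and also a membrane subunit of complex I, stood at 3649, 3600 and 2038 CPM in the controls and at 4122, 3956 and 4469 CPM with RBPMS. Control replicate 3 was far below the other controls, and the groups did not overlap in either comparison. The log2 fold change was 0.21 ± 0.054 (edgeR adjusted p = 0.021) without control replicate 3 and 0.43 ± 0.240 (adjusted p = 0.587) with it. mt-Nd6, the only mRNA of the light strand and a complex I subunit, had 1026, 957 and 1880 CPM in the controls and 1097, 1101 and 1235 CPM with RBPMS. Here control replicate 3 was above all other libraries. The log2 fold change was 0.21 ± 0.055 (edgeR adjusted p = 0.0233) without control replicate 3 and -0.17 ± 0.268 (adjusted p = 0.755) with it. mt-Nd5 and mt-Nd6 overlap on opposite strands, and whether counting used strand is not stated. If it did not, reads of the opposite strand could be counted for either gene, also outside the 14 shared bases. Leaving out control replicate 2 in addition ended both calls (mt-Nd5 0.20, adjusted p = 0.0814; mt-Nd6 0.16, adjusted p = 0.200), as did leaving out RBPMS replicate 3 (0.16 and 0.15, adjusted p = 0.0609 and 0.0653). That of mt-Nd5 was also lost without control replicate 1, at 0.22 (adjusted p = 0.0699).

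mt-Co1 made up 48.6% to 48.9% of the mitochondrial mRNA counts in 5 libraries and 46.8% in control replicate 3. Its level was 13276, 13371 and 12626 CPM in the controls and 14783, 14674 and 15929 CPM with RBPMS, with no overlap. The log2 fold change was 0.18 ± 0.053 (edgeR adjusted p = 0.0383) without control replicate 3 and 0.21 ± 0.145 (adjusted p = 0.591) with it. This call was lost when control replicate 1, control replicate 2, RBPMS replicate 2 or RBPMS replicate 3 was left out as well, with log2 fold changes of 0.18, 0.19, 0.21 and 0.15 and adjusted p = 0.107, 0.065, 0.0912 and 0.0981.

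The other complex IV genes were far lower. mt-Co3, subunit 3 of cytochrome c oxidase, had 30.6, 23.7 and 45.1 CPM in the controls and 34.1, 34.4 and 38.8 CPM with RBPMS, so the groups overlapped through control replicate 3. Its log2 fold change was 0.40 ± 0.097 (edgeR adjusted p = 0.0136) without control replicate 3 and 0.11 ± 0.229 (adjusted p = 0.818) with it. Without control replicate 2 as well it was 0.23 (adjusted p = 0.287). With the counts of its nuclear copy added, the value without control replicate 3 was 0.34 ± 0.099 (adjusted p = 0.0416). mt-Co2 had 81.9, 59.6 and 127 CPM against 85.5, 79.9 and 87.1 CPM. RBPMS replicate 2 lay below control replicate 1, and the log2 fold change was 0.25 ± 0.086 (edgeR adjusted p = 0.0807) without control replicate 3. Leaving out control replicate 1 or RBPMS replicate 2 as well gave 0.50 and 0.29 (adjusted p = 0.00103 and 0.0464). Summed with its chromosome 1 copy alone, mt-Co2 passed the test without control replicate 3, at 0.25 ± 0.057 (adjusted p = 0.00901). With all 6 libraries the summed value was -0.19 ± 0.288 (adjusted p = 0.748). That summing was chosen after the data were seen.

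The other mRNAs of the high set were above both remaining controls without passing the test. mt-Cytb had 3420, 3527 and 3547 CPM in the controls and 3741, 3778 and 4026 CPM with RBPMS, a log2 fold change of 0.15 ± 0.050 (edgeR adjusted p = 0.0782) without control replicate 3. mt-Nd2 had 1578, 1693 and 1841 CPM against 1803, 1749 and 1913 CPM, and 0.16 ± 0.052 (adjusted p = 0.071), which passed the test without control replicate 2 as well (0.21, adjusted p = 0.048). mt-Nd1 had 2164, 2145 and 2804 CPM against 2265, 2307 and 2442 CPM, and 0.12 ± 0.049 (adjusted p = 0.152). For all 3 genes the RBPMS libraries lay above control replicates 1 and 2, and for mt-Nd1 and mt-Nd2 control replicate 3 lay above at least 1 of them.

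The remaining low mRNAs gave less certain values. mt-Nd4l, a small complex I subunit, had 6.47, 3.82 and 2.16 CPM in the controls and 6.45, 7.57 and 9.80 CPM with RBPMS, and its lowest RBPMS library lay just below control replicate 1. Its log2 fold change was 0.62 ± 0.202 (edgeR adjusted p = 0.0682) without control replicate 3 and 0.95 ± 0.385 (adjusted p = 0.587) with it. Leaving out control replicate 1 or RBPMS replicate 1 as well gave 1.05 and 0.76 (adjusted p = 0.0217 and 0.0408). mt-Atp6 had 81.8, 35.01 and 45.3 CPM against 40.6, 46.9 and 61.4 CPM, with control replicate 1 above all others. Its log2 fold change was -0.23 ± 0.202 (adjusted p = 0.572) without control replicate 3, and 0.01 ± 0.183 once its copy was added. Without control replicate 1 as well the value for mt-Atp6 was 0.50, and without control replicate 2 it was -0.72 (adjusted p = 0.00296). mt-Nd3 had 0.678 to 3.30 CPM in the controls and 0.830 to 2.03 CPM with RBPMS, and a log2 fold change of 0.03 ± 0.419 (adjusted p = 0.978) without control replicate 3.

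**Figure D3:**
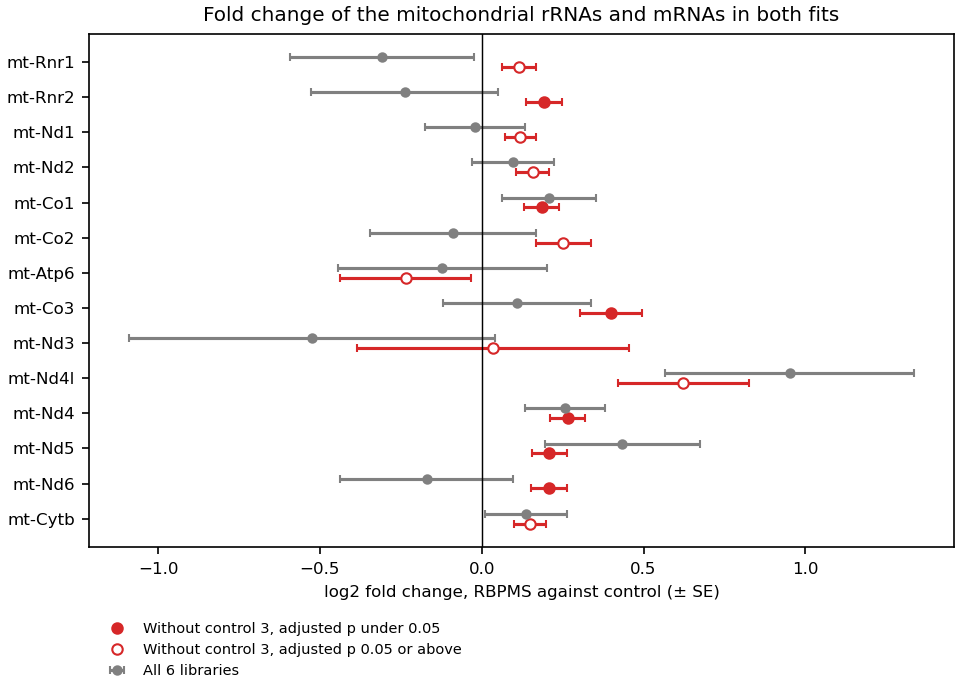
Points give the edgeR log2 fold change of RBPMS against control for the 2 rRNAs and the 12 tested mRNAs, in genome order, with bars of 1 SE. Filled red points, called without control replicate 3, are mt-Rnr2, mt-Co1, mt-Co3, mt-Nd4, mt-Nd5 and mt-Nd6; grey points, from all 6 libraries, have wider bars and lie below 0 for mt-Rnr1, mt-Rnr2, mt-Nd1, mt-Co2, mt-Atp6, mt-Nd3 and mt-Nd6.

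The rRNAs were counted at 307, 335 and 648 CPM (mt-Rnr1) and 233, 243 and 485 CPM (mt-Rnr2) in control replicates 1 to 3. With RBPMS they were at 337, 337 and 367 CPM and at 254, 266 and 296 CPM. Control replicate 3 held 1.99 times the rRNA share of the other controls, above every RBPMS library. Without it mt-Rnr2 was called higher, at a log2 fold change of 0.19 ± 0.056 (edgeR adjusted p = 0.0398), and mt-Rnr1 was at 0.11 ± 0.052 (adjusted p = 0.213). With all 6 libraries both values were below 0, at -0.24 ± 0.289 for mt-Rnr2 and -0.31 ± 0.285 for mt-Rnr1 (adjusted p = 0.691 and 0.631). The call of mt-Rnr2 was lost when control replicate 1, control replicate 2 or RBPMS replicate 3 was left out as well (0.16, 0.22 and 0.13, adjusted p = 0.269, 0.0895 and 0.0986).

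Control replicate 3 differed from the other controls in an order that followed gene length among the 7 high mRNAs. Relative to the mean of control replicates 1 and 2, its log2 difference was 0.92 for mt-Nd6 (519 bases), 0.38 for mt-Nd1 (957 bases) and 0.17 for mt-Nd2 (1038 bases). It was 0.03 for mt-Cytb (1144 bases), 0.02 for mt-Nd4 (1378 bases), -0.08 for mt-Co1 (1545 bases) and -0.83 for mt-Nd5 (1824 bases). The rRNAs did not follow this order, at 1.01 for mt-Rnr1 (955 bases) and 1.03 for mt-Rnr2 (1582 bases). Nor did the 6 low mRNAs, at 784 bases or fewer, at 1.23 for mt-Nd3, 0.84 for mt-Co2 and 0.73 for mt-Co3 but -0.37 for mt-Atp6, -0.38 for mt-Atp8 and -1.25 for mt-Nd4l.

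**Figure D4:**
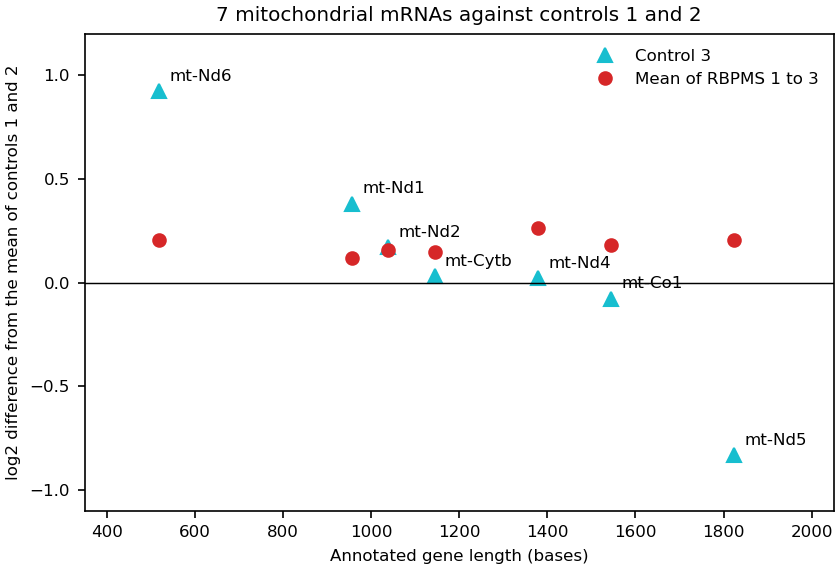
Each of 7 mitochondrial mRNAs is placed by its annotated length in bases and by its log2 difference from the mean of control replicates 1 and 2. Triangles, for control replicate 3, fall from 0.92 for mt-Nd6 to -0.83 for mt-Nd5, while circles, for the mean of the RBPMS libraries, lie between 0.12 and 0.26 for all 7.

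The tRNAs had few counts and no called change. The 22 genes together had 6353 counts over the 6 libraries, and 10 of them had at most 5 counts in all, among them mt-Tf (the phenylalanine tRNA) with 0. For mt-Tf, 0 of 115231557 counts allows a share of up to 2.6e-06% by counting error. That bound covers counting error alone, and how well such short RNAs enter these libraries was not tested. The 8 tRNAs of the light strand held 84.6% to 89.8% of the tRNA counts in each library, 5558 counts against 795 for the 14 tRNAs of the heavy strand. Whether counting used strand is not stated, so these counts may include reads of the opposite strand. The tRNAs for proline (mt-Tp), cysteine (mt-Tc) and asparagine (mt-Tn), all of the light strand, had the most counts; they are shown with mt-Tl2, a leucine tRNA and the heavy-strand tRNA with the most counts, and with mt-Tf.
mt-Tp (chrM:15356-15422, light strand): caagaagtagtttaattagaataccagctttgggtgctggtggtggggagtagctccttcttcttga
mt-Tc (chrM:5192-5257, light strand): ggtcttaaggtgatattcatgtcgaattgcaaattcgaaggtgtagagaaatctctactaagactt
mt-Tn (chrM:5089-5159, light strand): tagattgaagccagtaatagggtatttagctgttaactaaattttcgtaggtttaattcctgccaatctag
mt-Tl2 (chrM:11671-11741, heavy strand): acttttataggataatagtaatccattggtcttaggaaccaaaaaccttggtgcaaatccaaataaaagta
mt-Tf (chrM:1-68, heavy strand): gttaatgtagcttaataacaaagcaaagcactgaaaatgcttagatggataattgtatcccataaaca

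mt-Tp was at 22.4, 30.4 and 36.3 CPM in the controls and at 25.6, 26.8 and 29.6 CPM with RBPMS. mt-Tc was at 7.85, 9.86 and 11.0 CPM against 7.28, 6.97 and 9.47 CPM, and mt-Tn at 4.77, 6.10 and 12.1 CPM against 5.18, 5.02 and 7.06 CPM. The groups overlapped for all 3. mt-Tl2 had 60, 40 and 138 counts in the controls and 33, 56 and 30 with RBPMS, or 3.77, 2.47 and 6.07 CPM against 1.61, 2.60 and 1.64 CPM. Its log2 fold change was -1.08 ± 0.378 (edgeR adjusted p = 0.587) with all 6 libraries and -0.66 ± 0.275 (adjusted p = 0.164) without control replicate 3. Of the 10 tested tRNAs, 6 had a log2 fold change above 0 and 4 below it without control replicate 3. The other tested tRNAs, mt-Tl1, mt-Tw, mt-Ty, mt-Th, mt-Ts2 and mt-Te, stood at 2.32 CPM or below in every library. The tRNAs not tested were mt-Tf, mt-Tv, mt-Ti, mt-Tq, mt-Tm, mt-Ta, mt-Ts1, mt-Td, mt-Tk, mt-Tg, mt-Tr and mt-Tt, with 0 to 7 counts each in all libraries together.

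The mitochondrial mRNAs share features that played no part in how they were chosen. Base composition follows the strand: mt-Nd6 is 28.1% G and 6.0% C, whereas the 12 heavy-strand mRNAs are 5.9% to 16.1% G and 22.1% to 29.97% C. The annotated ends of mt-Co3, mt-Nd4 and mt-Cytb carry only the T of a stop codon, printed below in capitals, which polyadenylation is known to complete to TAA in such transcripts.
mt-Co3, bases 755 to 784: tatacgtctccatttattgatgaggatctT
mt-Nd4, bases 1349 to 1378: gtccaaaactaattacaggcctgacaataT
mt-Cytb, bases 1115 to 1144: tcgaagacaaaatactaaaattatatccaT

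Few of the nuclear genes that express the mitochondrial genome passed the test. Over 9 lists, 83 genes were tested, and without control replicate 3 edgeR called 1 higher and 1 lower, below the backgrounds of 3.81% and 3.43%. Their median log2 fold change was 0.01, and 45 of the 83 lay above 0. With all 6 libraries 0 were called by edgeR, 5 had an unadjusted p under 0.05, and the median was -0.11. The gene called higher was Mpv17, an inner-membrane protein of the nucleotide supply list, at 40.1, 35.01 and 51.4 CPM in the controls and 48.2, 46.1 and 43.1 CPM with RBPMS. Its log2 fold change was 0.29 ± 0.079 (adjusted p = 0.0281) without control replicate 3, and the groups overlapped with it. The call was lost without control replicate 2, RBPMS replicate 1 or RBPMS replicate 2 (adjusted p = 0.303, 0.112 and 0.0521). The gene called lower was Polg, the catalytic subunit of the polymerase that copies mitochondrial DNA, at 102, 102 and 59.6 CPM in the controls and 92.4, 89.1 and 83.4 CPM with RBPMS. Its log2 fold change was -0.20 ± 0.053 (adjusted p = 0.0229) without control replicate 3 and 0.01 ± 0.211 with it. That call was lost without control replicate 1, control replicate 2 or RBPMS replicate 3 (adjusted p = 0.129, 0.122 and 0.0652).

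In the other lists no gene was called, and the most abundant members were as follows. Polrmt, the mitochondrial RNA polymerase, averaged 32.1 CPM in control replicates 1 and 2 and 32.4 CPM with RBPMS, and Tfam, which packages mitochondrial DNA and starts its transcription, 29.6 and 28.8 CPM. Lrpprc, which stabilises mitochondrial mRNAs, averaged 81.1 and 82.0 CPM, and Rexo2, an exonuclease of short RNA, 37.9 and 38.5 CPM. Fastk averaged 54.6 and 57.7 CPM and Tbrg4 (FASTKD4) 40.8 and 41.9 CPM; both belong to a family that handles mitochondrial RNA. Hsd17b10, a part of the enzyme that cuts the 5′ ends of tRNAs, averaged 44.5 and 37.0 CPM, a log2 fold change of -0.26 ± 0.084 (edgeR adjusted p = 0.0618), and every RBPMS library was below every control. Trnt1, which adds the CCA end to tRNAs, averaged 30.4 and 30.05 CPM. Dhx30 and Mrm3, of ribosome assembly and rRNA modification, averaged 89.3 and 83.4 CPM and 60.3 and 55.6 CPM. The tRNA-modifying enzymes Nsun2 and Gtpbp3 averaged 63.1 and 58.6 CPM and 29.2 and 30.5 CPM. The translation elongation factors Tufm and Gfm1 averaged 83.0 and 80.3 CPM and 55.1 and 52.2 CPM.

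Nuclear regulators of mitochondrial genes and genes of mitophagy were not called either, 0 of 6 and 0 of 4 tested. Gabpa averaged 90.1 CPM in control replicates 1 and 2 and 89.0 CPM with RBPMS, and Pprc1 84.8 and 80.6 CPM. Ppargc1a was at 0 in all libraries. Bnip3l, a receptor of mitophagy, averaged 99.6 and 99.3 CPM, and Pink1, a kinase that marks damaged mitochondria, 46.6 and 51.8 CPM.

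Most nuclear subunits of complexes I to V had values on the other side of 0 from most mitochondrial mRNAs. Of 75 tested nuclear subunits, among them 4 of complex II, 70 had a log2 fold change below 0 without control replicate 3. Their median was -0.10, beside -0.0025 for all tested genes. The 12 tested mitochondrial mRNAs had a median of 0.20 there, and 11 of them lay above 0. Among the 75, edgeR called 0 higher and 4 lower (5.33%), against backgrounds of 3.81% and 3.43%. When control replicate 3 was kept, 75 of 75 lay below 0, with a median of -0.53, and 0 were called by edgeR, with 3 at an unadjusted p under 0.05. In that comparison the sum of the nuclear complex I subunits was 4211 CPM in control replicate 3, against 2116 and 2159 CPM in the other controls and 1937 to 2009 CPM with RBPMS. The difference between the nuclear and the mitochondrial subunits was not tested.

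The 4 called nuclear subunits, 5.33% of the 75 against 3.43% of all tested genes called lower, are too few to be read by complex. Ndufc2, an accessory subunit of complex I, had 163, 161 and 396 CPM in the controls and 142, 138 and 138 CPM with RBPMS, and a log2 fold change of -0.21 ± 0.046 (edgeR adjusted p = 0.00531) without control replicate 3. For the complex III subunits Uqcrq and Uqcr11 the values were 109, 115 and 249 against 100.4, 97.1 and 94.3 CPM, and 49.3, 52.5 and 108 against 43.5, 41.9 and 36.4 CPM. Their log2 fold changes were -0.20 ± 0.050 and -0.32 ± 0.078 (adjusted p = 0.0175 and 0.0139). Cox5b, a nuclear subunit of complex IV, had 70.6, 65.5 and 123 CPM against 55.4, 57.0 and 47.7 CPM, and -0.35 ± 0.072 (adjusted p = 0.00453). In all 4 genes every RBPMS library was below every control, as in 12.5% of all genes tested with 6 libraries, and control replicate 3 was the highest library. These 4 genes were picked as called lower against control replicates 1 and 2, so this separation is not further support. Without control replicate 1 as well, the calls of Ndufc2, Uqcrq and Cox5b were lost (adjusted p = 0.0698, 0.0531 and 0.104), and without control replicate 2 those of Uqcrq and Uqcr11 (adjusted p = 0.187 and 0.144). Of complex II, which has no mitochondrially encoded subunit, Sdha averaged 184 CPM in control replicates 1 and 2 and 182 CPM with RBPMS, and Sdhc 85.3 and 91.4 CPM. Of complex V, Atp5b averaged 925 and 838 CPM and Atp5a1 349 and 324 CPM, with adjusted p = 0.0615 and 0.182.

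**Figure D5:**
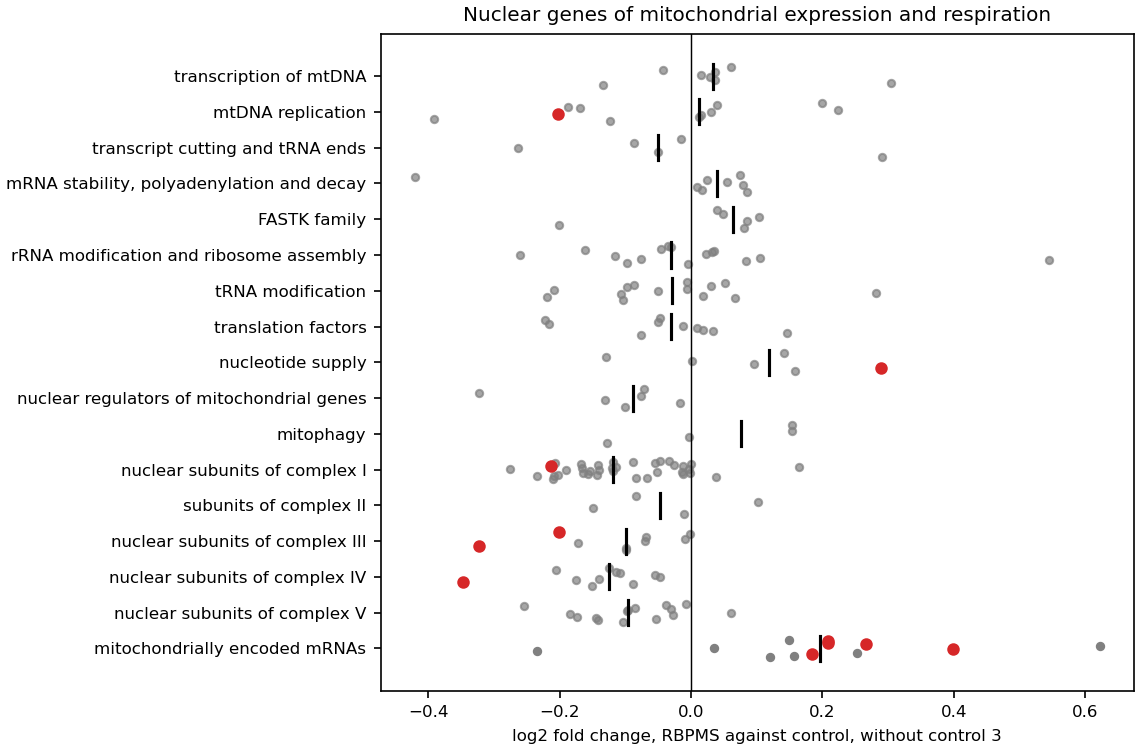
Each point is 1 tested gene, placed by its edgeR log2 fold change of RBPMS against control without control replicate 3, in rows by list; red points have an adjusted p under 0.05 and black lines are medians. The row of mitochondrially encoded mRNAs has its median at 0.20, and the rows of nuclear subunits of complexes I, III, IV and V have medians of -0.12, -0.10, -0.13 and -0.10.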

How the data were processed

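The authors deposited a table of raw whole-number counts per gene for 6 libraries. Per the submitters' processing notes they used FastQC, Salmon and mm10 (versions, the making of whole counts and strand handling: not given in the sources used here). The deposited counts went unchanged into edgeR 4.0.16 (R 4.3.3): filterByExpr by group, TMM, quasi-likelihood test with group as the only term, Benjamini-Hochberg adjustment over all tested genes, threshold 0.05, with and without control replicate 3. SE is the absolute log2 fold change over the square root of F. Levels are TMM-scaled CPM from all 6 libraries, and shares are of the total count. Shared windows of 100 bases, and copies, came from GENCODE M21 transcripts (GRCm38) with Biopython 1.88. limma 3.58.1 (voom), DESeq2 1.42.0, other scalings and filters, a length offset, a replicate block and each library left out were alternatives. All 37 mitochondrial genes are named; of each list, the called genes without control replicate 3 (up to 4 a direction), otherwise the 2 most abundant. The genes, the lists and the leaving out of control replicate 3 were chosen with earlier results of these data known. The test was checked only on simulated counts with the same dispersion for all genes and fold changes larger than those of the called mitochondrial genes. That check therefore does not cover calls of this size. Pairs of libraries of a group differed by more than sampling noise (chi-square per degree of freedom 3.19 to 137).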

Additional observations from a re-analysis of the deposited data

How the results depend on the processing

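The shares of all 37 genes, of the mRNAs and of complexes I, III and IV stayed higher with RBPMS under each denominator and each library left out. Those of the rRNAs, tRNAs and complex V changed direction: with 1 library left out of 6, the difference ran from -0.0227 to 0.0059 percentage points for the rRNAs (above 0 without control replicate 3) and from -0.00139 to 0.0010 for complex V (above 0 without control replicate 1 or RBPMS replicate 1). With 1 left out of the other 5, it ran from -0.00057 to 0.00054 for the tRNAs and from -0.00329 to 0.00148 for complex V. The count of 6 called genes without control replicate 3 became 12 with no filter on low counts (11 higher and 1 lower, mt-Atp6). It was 10 with a length trend as an offset and 8 with DESeq2 or limma-voom. With 1 RBPMS library left out as well it ran from 2 to 7. Leaving out RBPMS replicate 1 added mt-Nd4l, leaving out RBPMS replicate 2 put mt-Co2 in place of mt-Co1, and without RBPMS replicate 3 only mt-Co3 and mt-Nd4 were called, 2 genes. Fits that left 1 control library did not keep the same genes, and mt-Atp6 was lower without control replicate 2. With all 6 libraries the count of called mitochondrial genes was 0 except without control replicate 3, a range of 0 to 6. Correlations of deviations from the group mean were 0.050, -0.025 and 0.013 for same-numbered libraries. The control mean there includes control replicate 3, which stood apart, so these values cannot decide whether the replicate numbers pair the samples. With the replicate number as a block 1 mitochondrial gene, mt-Nd4, was called without control replicate 3, and 1 of the 2 list genes. With 1 library left out the list genes called ran from 0 to 2 (1 without control replicate 1 and 1 without RBPMS replicate 1, 0 without control replicate 2).

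Over 90 alternatives for the 6 called genes, all 90 log2 fold changes stayed above 0 (0.13 to 0.59) and 19 lost the call, most often without control replicate 2 or with the block. All 90 were fits without control replicate 3, the setting in which the 6 genes were called higher, so their shared direction was partly set by that choice. With all 6 libraries mt-Rnr2 was at -0.24 and mt-Nd6 at -0.17. Where 1 control library was left, it was assumed to vary like the others. With all 6 libraries, values not called changed sign with the length offset (mt-Nd1 0.12, mt-Co2 0.087, mt-Atp6 0.0074, mt-Nd6 0.017) and with nuclear copies added (mt-Atp6 0.052, mt-Co3 -0.013). They also did so with 1 library left out, running from -0.50 to 0.11 for mt-Rnr1, -0.42 to 0.19 for mt-Rnr2, -0.088 to 0.12 for mt-Nd1, -0.31 to 0.25 for mt-Co2, -0.35 to 0.30 for mt-Atp6, -0.084 to 0.40 for mt-Co3, -0.93 to 0.034 for mt-Nd3 and -0.35 to 0.21 for mt-Nd6. Without control replicate 3, leaving out 1 more gave -0.72 to 0.50 for mt-Atp6 and -0.57 to 1.07 for mt-Nd3. There mt-Atp6 was 0.012 with its copy added, and mt-Nd3 was -0.25 with its copy added and -0.23 with the block. The cause was not tested.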
